A study of Mus musculus with 8 samples.

Results

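The antioxidant defence genes described here are Cat, Sod1, Sod2, Sod3, Gpx1, Gpx3, Prdx3, Nqo1, Hmox1 and Txnip, 10 genes chosen by name and followed in mouse heart ventricle from birth to 1 week of age. They were found by the RefSeq accession that each array probe carries, and all 10 were on the array, with 11 probes, out of 22909 named genes. All 11 probes were well above background on all 8 arrays and none was saturated, so all 10 genes were among the 15743 that passed the signal filter. The study compared wild-type mice (WT) with homozygous knock-in mice (KI, genotype TNNT2deltaK210/deltaK210), whose cardiac troponin T, a thin-filament protein, lacks lysine K210. Each genotype was sampled at birth (labelled 0 days old) and at 1 week, with 2 single-colour arrays in each of the 4 groups. RNA of 3 ventricles was pooled per the labels, no treatment is named, and strain and sex are not given in the sources used here. Whether a group's 2 arrays carried RNA of separate pools is not given in the sources used here. Errors and p-values therefore measure the spread between arrays, which may be technical. The tissue, ventricle per the sample labels and left ventricle per the design text, was measured in bulk, so fewer cells of a type and less RNA per cell cannot be told apart.

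Respiring mitochondria release superoxide, and the heart, which is rich in mitochondria, turns to fatty acids as fuel after birth, when oxygen in the blood rises. Superoxide dismutases turn superoxide into hydrogen peroxide, with Sod1 in the cytosol, Sod2 in the mitochondrial matrix and Sod3 bound to the matrix outside the cell. Catalase (Cat), the glutathione peroxidases (Gpx1 inside cells, Gpx3 secreted into plasma) and the mitochondrial peroxiredoxin Prdx3 then remove the peroxide. Nqo1 reduces quinones and Hmox1 breaks down heme; both are classic targets of the stress-activated factor Nrf2. Txnip binds and inhibits thioredoxin and also limits glucose uptake, and its transcription follows glucose.

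Values are log2 processed signal set against the 75th percentile over each array's gene probes (controls left out), called the level below; levels of different probes are not compared. Background was cleared by 58.9% to 63.1% of probes per array, and that percentile (signal units) was between 440 and 466 at birth and between 342 and 523 at 1 week. The deposited value table and the deposited scanner files name different samples for 3 of the 4 arrays at 1 week. By the value table, which is used throughout, WT at 1 week is arrays A and D and KI at 1 week is arrays B and C, each pair given in that order. By the scanner files, WT is A and B and KI is C and D, and results with those samples are given beside. The newborn samples filled slide row 1 and the week-old samples row 2, and newborn WT and KI filled different columns (1 and 2 against 3 and 4). Age therefore cannot be told apart from row, nor newborn genotype from column. Arrays A, B, C and D filled columns 1, 2, 3 and 4 of row 2. By the scanner files, genotype at 1 week therefore cannot be told apart from column either. With the value-table samples, week-old WT filled columns 1 and 4 and week-old KI columns 2 and 3. Array D stood apart: it was the lowest of the 8 arrays for 5 of the 10 genes (Cat, Sod2, Gpx1, Prdx3 and Nqo1) and for 28.7% of all genes tested. Array D was the highest for 1 of the 10 (Sod3) and for 21.2% of all genes tested. It also held the strongest adipocyte signal, with Ucp1 of brown fat at 2.40 on D, 0.52 on B, 1.23 on C and -6.28 on A, where it was not well above background; Adipoq, Cfd and Plin1 were above background on B, C and D too and on no other array. The 6 ventricular muscle markers were well above background on every array, and their signal, summed in multiples of the 75th percentile, was 1557 to 1672 at birth and 1514 to 1753 at 1 week.

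Over the first week 2 of the 10 genes changed, 1 in each direction. Sod3 rose 3.45-fold and Txnip fell 2.11-fold with the genotypes averaged (limma, Benjamini-Hochberg over all genes tested, n = 4 arrays an age), and both changes were found in WT and in KI. The other 8 genes did not pass, with differences from -0.30 to +0.12 (log2). This share stands beside 29.3% of all genes called in the same comparison, 14.8% higher and 14.5% lower. In WT and in KI alone, 2 of the 10 passed where 19% and 10.6% of all genes did (in WT 10% higher and 8.96% lower, in KI 5.86% and 4.75%). The 4 arrays of each age did not overlap for the same 2 genes, against 35.6% of all genes. With 2 arrays against 2 they did not overlap for 4 of 10 in WT and 6 of 10 in KI, where 62.7% and 60.1% of all genes did not. By the scanner files 2 of 10 passed averaged, in WT and in KI, where 30.1%, 12.7% and 15.3% of all genes did. The median difference of the 10 genes was -0.084 against -0.030 over all genes. Leaving out 1 array at a time, the averaged difference ran from 1.67 to 1.90 for Sod3 and from -1.16 to -0.99 for Txnip (log2). For Cat it was -0.46 without array A. With no array left out, the average over genotypes uses all 4 arrays of each age, so its value is the same whichever record names the 1-week samples.

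**Figure D1:**
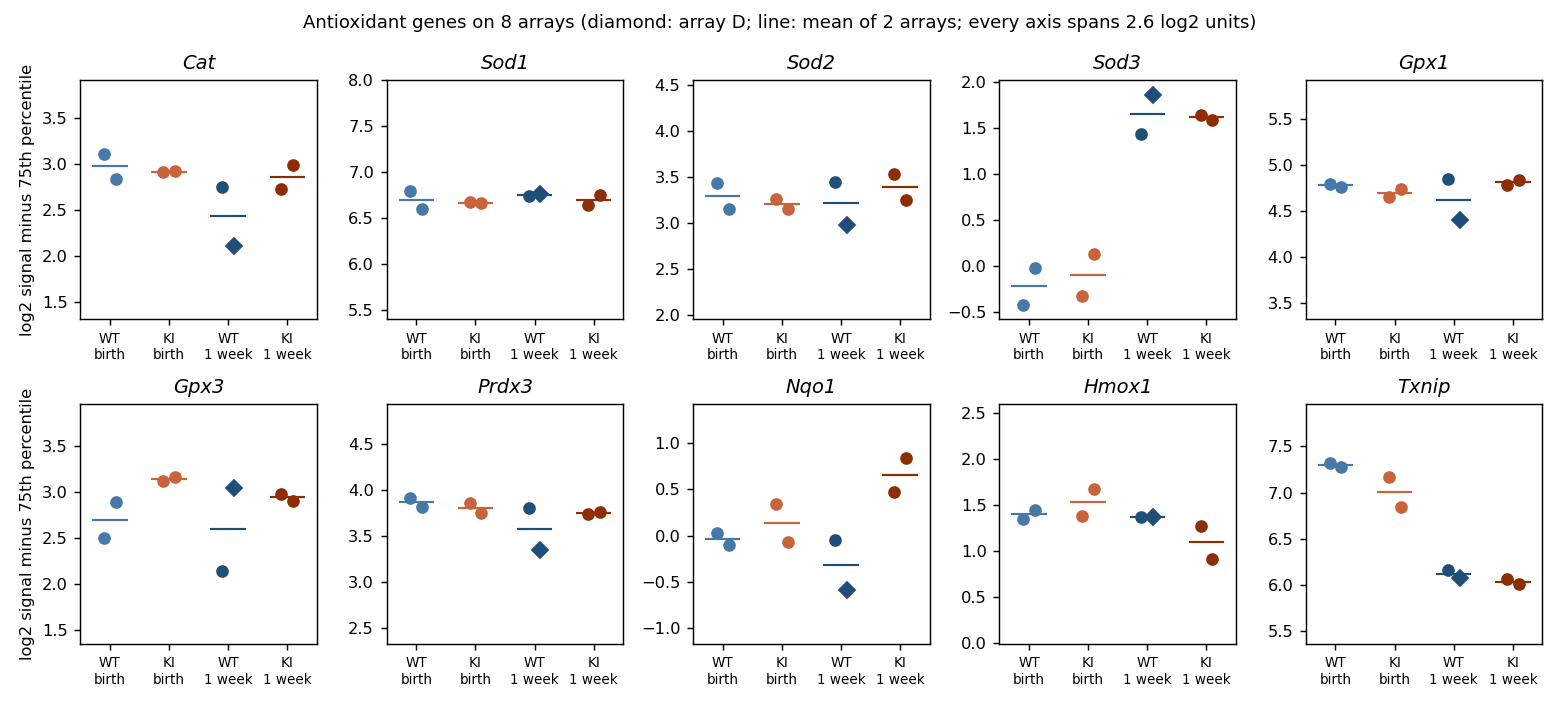
Level of each gene (log2 signal minus the array's 75th percentile) on the 8 arrays, by group, with a line at the mean of the 2 arrays of a group and a diamond for array D; the axes start at different levels but all span the same range. All 4 arrays at 1 week lie above all birth arrays for Sod3 and below them for Txnip, and the ages overlap for the other 8 genes.

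Of the 3 superoxide dismutases, the extracellular enzyme Sod3 passed the test and the cytosolic and mitochondrial enzymes did not. Sod3 stood at -0.42 and -0.024 in newborn WT, -0.32 and 0.14 in newborn KI, 1.43 and 1.86 in week-old WT and 1.64 and 1.59 in week-old KI. The lowest 1-week array lay well above the highest birth array, while WT and KI overlapped at each age. The rise was 1.79 ± 0.16 (log2; adjusted p = 0.000482; higher on 4 of 4 arrays), 1.87 ± 0.23 in WT (adjusted p = 0.00334) and 1.71 ± 0.23 in KI (adjusted p = 0.00576), by limma. With the scanner-file samples it was 1.76 ± 0.22 in WT and 1.82 ± 0.22 in KI, both past the threshold. By size it ranked 328 of the 15743 genes tested. Sod1 was the steadiest of the 10, at 6.80 and 6.61 in newborn WT, 6.68 and 6.66 in newborn KI, 6.74 and 6.76 in week-old WT and 6.65 and 6.75 in week-old KI, and Sod1 levels at the 2 ages were interleaved. Its difference was +0.037 ± 0.089 with a 95% interval of -0.17 to 0.25, and the range of its 8 arrays was narrower than that of all but 1.05% of genes. Sod2 stood at 3.44 and 3.16 in newborn WT, 3.26 and 3.15 in newborn KI, 3.45 and 2.98 in week-old WT and 3.53 and 3.25 in week-old KI. The ages overlapped for Sod2 too, its difference being +0.050 ± 0.14 (interval -0.28 to 0.38).

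Markers of other cell types differed between the ages as well, and their part in the rise of Sod3, an enzyme known from vessel walls, and in the fall of Txnip was not tested. Of the fibroblast markers 5 of 6 rose, their summed signal being 207 to 246 at birth and 398 to 526 at 1 week. Of the endothelial markers 2 of 5 rose, with sums of 38.1 to 39.2 at birth and 46.7 to 62.8 at 1 week. The smooth muscle markers were split, with Myh11 at +1.33 and Cnn1 at -2.14 (log2 difference), and summed to 112 to 168 at birth and 85.2 to 131 at 1 week. Macrophage sums were 7.86 to 10.2 at birth and 11.6 to 16 at 1 week (4 of 8 markers rose), and erythroid sums were 458 to 491 at birth and 457 to 669 at 1 week (2 of 6 rose). Neutrophil markers moved the other way, 6 of 7 falling, with sums of 11.7 to 24.4 at birth and 2.99 to 5.13 at 1 week. Of these, Ngp entered the test only through its birth arrays, and Retnlg and Ltf were above background on 6 and 7 of the 8 arrays. Adipocyte markers summed to 15.9 to 20.8 at birth and 25 to 35.5 at 1 week. Nearly all of the birth sums and of the sum on array A was Cidea, which was above background on all 8 arrays. Cidea stood at 3.99 to 4.38 at birth and 4.64 to 4.82 at 1 week. Adipoq, Cfd, Plin1 and Ucp1 entered the test only through the week-old KI group, in which they were above background, so no count is given for this list. Atrial markers summed to 142 to 267 at birth and 13.4 to 279 at 1 week, where array A was lowest and 0 of 3 passed. Of the ventricular muscle markers 0 of 6 passed. Of the 2 liver markers tested 1 fell, with sums of 0.113 to 0.762 at birth and 0.0465 to 0.336 at 1 week. These 2, Alb and Ttr, were each above background on 6 of the 8 arrays. Alb, which fell, stood at -7.29 and -7.13 in week-old KI and at -4.47 and -1.88 in week-old WT.

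The thioredoxin inhibitor Txnip was the gene that fell. It stood at 7.31 and 7.28 in newborn WT, 7.17 and 6.84 in newborn KI, 6.16 and 6.07 in week-old WT and 6.06 and 6.004 in week-old KI. Every 1-week array was lower than every birth array. At each age both KI arrays were lower than both WT arrays by the value table, while by the scanner files the genotypes overlapped at 1 week. Among all genes, the genotypes did not overlap for 31.9% at birth and 37.9% at 1 week. The difference was -1.08 ± 0.10 (log2; adjusted p = 0.000596 by limma; lower on 4 of 4 arrays), -1.18 ± 0.14 in WT (adjusted p = 0.00337) and -0.97 ± 0.14 in KI (adjusted p = 0.00826). The KI value lost its call without array B (-1.0003; adjusted p = 0.052) or without array C (-0.94; 0.0605). A dimmer Txnip probe, which the fit did not use, stood at 2.86 and 3.01 in newborn WT, 2.75 and 2.64 in newborn KI, 1.87 and 1.56 in week-old WT and 1.62 and 1.44 in week-old KI, a difference of -1.19 in the same direction.

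Promoter windows of 300 bases, from 250 before to 50 after the gene start, were held by the RefSeq table (GRCm38.p6) for 8 of the 10 genes; Sod3 and Hmox1 were not among them. Both strands were searched for the antioxidant response element of Nrf2 (TGACNNNGC), the FoxO site (GTAAACA) and the E-box (CACGTG), and no match overlaps another. Only exact matches to these letters were sought. Imperfect E-boxes were not searched, so sites of the glucose-sensing factors were not assessed. 3 windows are printed, that of Txnip because its transcript fell, that of Sod1 because it holds the element while its transcript did not pass, and that of Nqo1 as the standard Nrf2 target. Capitals mark a match.
Txnip (chr3:96557707-96558006, + strand): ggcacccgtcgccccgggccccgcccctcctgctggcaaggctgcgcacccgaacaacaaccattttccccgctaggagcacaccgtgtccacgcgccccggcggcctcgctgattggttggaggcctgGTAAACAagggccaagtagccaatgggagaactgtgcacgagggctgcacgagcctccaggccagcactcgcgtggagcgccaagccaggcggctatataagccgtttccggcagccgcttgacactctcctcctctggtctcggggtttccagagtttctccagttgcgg
Sod1 (chr16:90220512-90220811, + strand): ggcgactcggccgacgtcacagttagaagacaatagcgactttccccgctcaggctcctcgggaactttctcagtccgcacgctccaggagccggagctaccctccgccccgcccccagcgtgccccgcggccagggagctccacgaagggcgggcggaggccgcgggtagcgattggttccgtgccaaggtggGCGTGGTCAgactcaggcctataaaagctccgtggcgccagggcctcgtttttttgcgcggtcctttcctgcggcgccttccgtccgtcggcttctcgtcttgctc
Nqo1 (chr8:107403156-107403455, - strand): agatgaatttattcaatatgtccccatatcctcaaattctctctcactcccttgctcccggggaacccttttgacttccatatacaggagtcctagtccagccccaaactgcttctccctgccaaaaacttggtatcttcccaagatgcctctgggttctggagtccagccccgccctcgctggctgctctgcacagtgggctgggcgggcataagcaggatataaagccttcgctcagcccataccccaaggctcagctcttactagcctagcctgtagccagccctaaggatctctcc
The Txnip window holds 1 FoxO match and the Sod1 window 1 match to the response element, on the reverse strand. The Nqo1 window holds none of the 3 motifs, and bases more than 250 before a gene start were not searched. Of the 8 windows searched, 1 holds the response element, 1 the FoxO site and 0 the E-box. Of all 32851 windows in the table, 12.4% hold the response element, 3.65% the FoxO site and 7.15% the E-box. A match describes letters only.

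None of the 4 genes that remove hydrogen peroxide passed. Catalase stood at 3.11 and 2.84 in newborn WT, 2.91 and 2.92 in newborn KI, 2.75 and 2.11 in week-old WT and 2.73 and 2.98 in week-old KI, and array D was the one low value. Its difference was -0.30 ± 0.16 averaged over genotypes (adjusted p = 0.194), -0.54 ± 0.23 in WT and -0.060 ± 0.23 in KI. In WT it passed without array A (-0.86; adjusted p = 0.025), which leaves D as the only WT array at 1 week, and stood at -0.23 without array D (adjusted p = 0.471); the average also passed without A (-0.46; 0.0322). Prdx3, too, was lowest on array D, at 3.91 and 3.82 in newborn WT, 3.86 and 3.75 in newborn KI, 3.81 and 3.36 in week-old WT and 3.74 and 3.76 in week-old KI. It differed by -0.17 ± 0.12 on average, and by -0.29 ± 0.17 in WT, where it passed without A (-0.51; adjusted p = 0.0432) and stood at -0.060 without D (adjusted p = 0.811). Gpx1, the main cytosolic glutathione peroxidase, stood at 4.80 and 4.76 in newborn WT, 4.65 and 4.73 in newborn KI, 4.85 and 4.40 in week-old WT and 4.79 and 4.84 in week-old KI; again D alone was low, and the difference was -0.019 ± 0.12 (interval -0.30 to 0.26). Gpx3 was at 2.51 and 2.89 in newborn WT, 3.12 and 3.17 in newborn KI, 2.14 and 3.05 in week-old WT and 2.98 and 2.91 in week-old KI. Here array A was the low one, and the 1-week WT arrays lay farther apart (0.903) than the ages (-0.15 ± 0.20, interval -0.63 to 0.33).

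The inducible enzymes Nqo1 and Hmox1 did not pass either. Nqo1 was at 0.026 and -0.098 in newborn WT, 0.34 and -0.071 in newborn KI, -0.044 and -0.59 in week-old WT and 0.47 and 0.85 in week-old KI. Its 1-week arrays ran from the lowest to the highest of all 8, and its difference between ages was +0.12 ± 0.17 averaged, -0.28 ± 0.24 in WT and +0.53 ± 0.24 in KI (adjusted p = 0.617, 0.425 and 0.224 by limma). Hmox1 stood at 1.35 and 1.44 in newborn WT, 1.38 and 1.67 in newborn KI, 1.37 and 1.37 in week-old WT and 1.27 and 0.92 in week-old KI. Array C was its lowest value, and it differed by -0.23 ± 0.12 averaged and by -0.43 ± 0.17 in KI, where both 1-week arrays lay below both birth arrays without passing (adjusted p = 0.161).

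**Figure D2:**
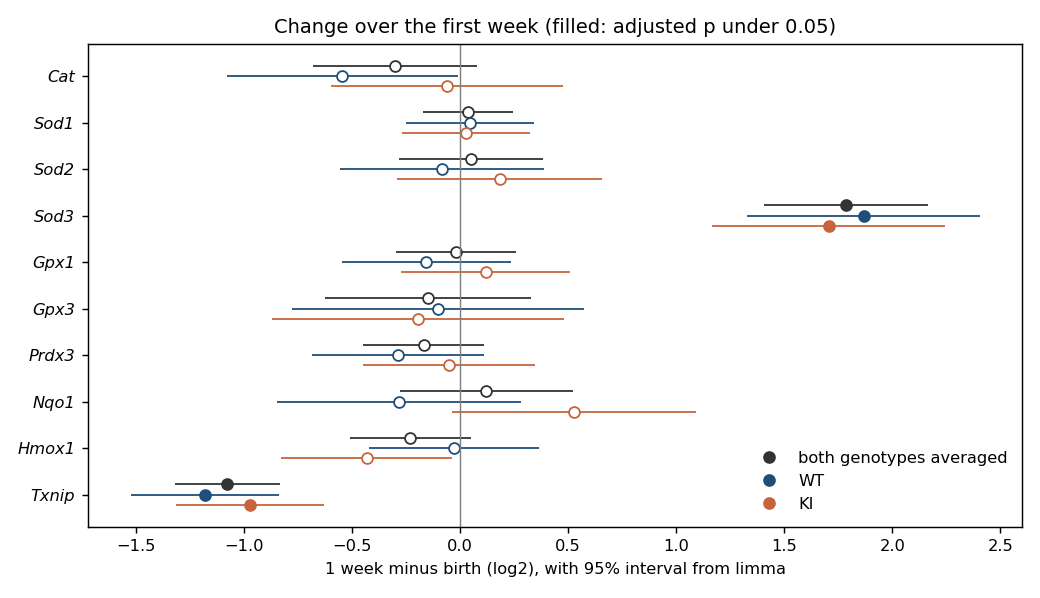
Difference between 1 week and birth (log2) for each gene, averaged over genotypes and in WT and KI, with the 95% interval; filled points passed at an adjusted p under 0.05. Sod3 and Txnip lie apart from 0 in all 3 comparisons, and the other 8 genes have open points throughout.

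No difference between the genotypes passed the test for any of the 10 genes at either age. At birth, limma called 0 of 10 genes against 0.0381% of all genes (0% with the scanner-file samples, where 677 genes had an unadjusted p under 0.05), and the 2 KI arrays lay beyond both WT arrays for 3 of 10, against 31.9% of all genes. These 3 were Gpx3 (+0.44 ± 0.29), Gpx1 (-0.085 ± 0.17) and Txnip (-0.29 ± 0.14); Sod3 differed by +0.13 ± 0.23 and Nqo1 by +0.17 ± 0.24, and the adjusted p of all 10 rounded to 1.00 by limma. None of the 10 had an unadjusted p under 0.05 at birth, against 741 of all 15743 genes.

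At 1 week the value-table samples gave 0 of 10 called against 0.0508% of all genes. An unadjusted p under 0.05 (limma) was reached by 1 of 10, against 1112 of all 15743 genes. That gene was Nqo1, at -0.044 and -0.59 in WT and 0.47 and 0.85 in KI. Both KI arrays lay above both WT arrays (the groups did not overlap for 3 of 10, against 37.9% of all genes), a difference of +0.98 ± 0.24 (interval 0.41 to 1.54) or 1.97-fold, which did not pass (adjusted p = 0.475 by limma). By the scanner files it was -0.089 ± 0.45 (adjusted p = 0.969). The other values, with those by the scanner files beside, were +0.43 ± 0.23 and -0.19 ± 0.27 for Cat, +0.17 ± 0.20 and -0.37 ± 0.15 for Sod2, and +0.19 ± 0.17 and -0.20 ± 0.16 for Gpx1. For Prdx3 they were +0.17 ± 0.17 and -0.22 ± 0.16. These 4 genes and Nqo1 were lowest on array D, which is WT in the first record and KI in the second, and for all 5 the sign differed between the records. It also differed for Sod1 (-0.052 ± 0.13 and +0.061 ± 0.12) and Sod3 (-0.034 ± 0.23 and +0.19 ± 0.22). It did not for Gpx3 (+0.35 ± 0.29 and +0.41 ± 0.28), Hmox1 (-0.28 ± 0.17 and -0.18 ± 0.18) or Txnip (-0.084 ± 0.14 and -0.076 ± 0.14). Sod2 alone of the 10 reached an unadjusted p under 0.05 (limma) by the scanner files, as 1556 of 15756 genes did, with an adjusted p of 0.497. By those files 0 of 10 were called, against 0.00635% of all genes. Without array D the value for Nqo1 was 0.70 and for Cat 0.11 in the value-table record.

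**Figure D3:**
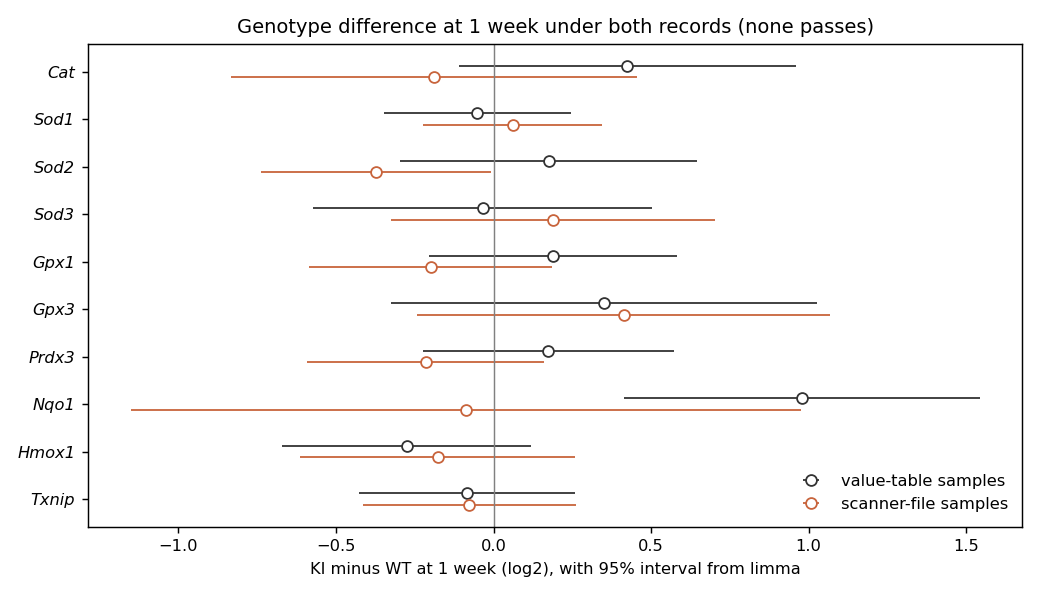
Difference between KI and WT at 1 week (log2) with its 95% interval for each gene, once with the samples of the value table and once with those of the scanner files. No gene passed in either record, and the point for Nqo1 moves from 0.98 to -0.089 between them.

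Whether the change with age differed by genotype was tested as an interaction by limma, and 0 of 10 genes passed in either record. Of all genes, 0.00635% were called by the value table and 0% by the scanner files. An unadjusted p under 0.05 was reached by 763 of 15743 genes by the value table and 991 of 15756 by the scanner files. Among the 10, Nqo1 alone had such a p, in the value-table record. The difference of the age changes, KI minus WT, was -0.16 ± 0.32 for Sod3 (interval -0.92 to 0.60), +0.21 ± 0.20 for Txnip (interval -0.27 to 0.69) and +0.81 ± 0.34 for Nqo1 (adjusted p = 0.888). By the scanner files these were +0.062 ± 0.31, +0.22 ± 0.20 and -0.26 ± 0.63.

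Of 134 other genes of the antioxidant system on 9 lists, 128 were tested, and 15 rose and 23 fell over the week with genotypes averaged, against 14.8% and 14.5% of all genes. Their median was -0.050 against -0.030 over all genes. In WT 13 rose and 17 fell, against 10% and 8.96% of all genes. In KI 8 rose and 10 fell, against 5.86% and 4.75%. Between genotypes 0 of 128 passed by limma at birth and 0 at 1 week, against 0.0381% and 0.0508% of all genes. An unadjusted p under 0.05 was reached by 3 at birth and 9 at 1 week, against 741 and 1112 of all 15743 genes. The named genes are the 3 of each list with the smallest p, so their values are no sample of the list, and larger changes with a larger p can stand beside them.

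Of the other peroxiredoxins, glutathione peroxidases and the copper chaperone Ccs, 0 of 9 rose and 0 fell (median -0.018). The smallest p belonged to Prdx5 (+0.28 ± 0.11), Prdx4 of the endoplasmic reticulum (-0.29 ± 0.12) and Prdx1 (-0.21 ± 0.11). None of them passed the threshold by limma, and 1 of the 9 had an unadjusted p under 0.05, against 6742 of all 15743 genes. In the thioredoxin and glutaredoxin list 1 of 10 rose and 1 fell (median -0.13). Glutaredoxin Glrx fell by 0.97 ± 0.22 (log2; adjusted p = 0.0163 by limma) and Srxn1, which repairs oxidised peroxiredoxins, rose by 0.55 ± 0.15 (adjusted p = 0.0293), while Txnrd3 was at -0.16 ± 0.084. Among the arrestin-domain relatives of Txnip and the glucose-sensing factors, 1 of 7 rose and 3 fell (median -0.34). Arrdc4 (-0.72 ± 0.087; adjusted p = 0.00154) and Arrdc3 (-0.70 ± 0.12; 0.00516) fell as Txnip did, and Arrdc1 rose (+0.51 ± 0.10; 0.0124). The other faller, named after its value was seen, was Arrdc2 (-1.59 ± 0.47; 0.0413), whose change was the largest of this list. A dimmer Arrdc4 probe differed by +0.022, so the probes of that gene disagree.

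Of the glutathione list, the longest of the 9, 4 of 26 rose and 8 fell (median -0.30). The microsomal transferase Mgst1 fell by 1.46 ± 0.11 (adjusted p = 0.000266 by limma), and the mu-class transferases Gstm1 (-1.61 ± 0.15; 0.000578) and Gstm2 (-0.79 ± 0.10; 0.00197) fell with it. Mu-class genes are close in sequence, so their probes may read each other. On the list of quinone, heme, iron and metal handling, 4 of 18 rose and 5 fell (median -0.046). Metallothionein Mt2, which binds zinc and copper, stood at a mean of 5.86 in WT and 5.41 in KI at birth, and at 2.72 and 3.04 at 1 week. It fell by 2.75 ± 0.26 (adjusted p = 0.000557). Abcc1, which exports glutathione conjugates, rose by 2.17 ± 0.15 (0.000237) and the carbonyl reductase Cbr3 by 1.41 ± 0.093 (0.000194).

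Enzymes that supply NADPH showed 1 rise and 1 fall among 11 (median +0.0066). The mitochondrial malic enzyme Me3 rose by 1.76 ± 0.15 (adjusted p = 0.000447 by limma), the mitochondrial NAD kinase Nadk2 changed by -0.67 ± 0.088 (0.00202), and the cytosolic Me1 was at +0.34 ± 0.11 without passing. Of the regulators 1 of 19 rose and 2 fell (median +0.060). They were Tigar (+0.65 ± 0.14; adjusted p = 0.016), the deacetylase Sirt1 (-0.42 ± 0.086; 0.0123) and the small Maf protein Maff (-0.80 ± 0.20; 0.0252); the Nrf2 gene Nfe2l2 and its inhibitor Keap1 were at +0.32 ± 0.14 and +0.29 ± 0.12, named outside the rule as the pathway's core. Of the oxidant sources 2 of 14 rose and 1 fell, with a median of +0.29. Inducible nitric oxide synthase Nos2 rose by 1.55 ± 0.11 (0.000249), endothelial Nos3 by 0.42 ± 0.11 (0.0284), and xanthine dehydrogenase Xdh changed by -1.57 ± 0.32 (0.0116). In the repair and selenoprotein list 1 of 14 rose and 2 fell (median -0.10): the methionine sulfoxide reductase Msrb1 rose (+0.54 ± 0.12; 0.0172), and the DNA repair nuclease Apex1 (-0.59 ± 0.095; 0.00477) and the aldehyde dehydrogenase Aldh2 (-0.46 ± 0.12; 0.0284) fell.

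**Figure D4:**
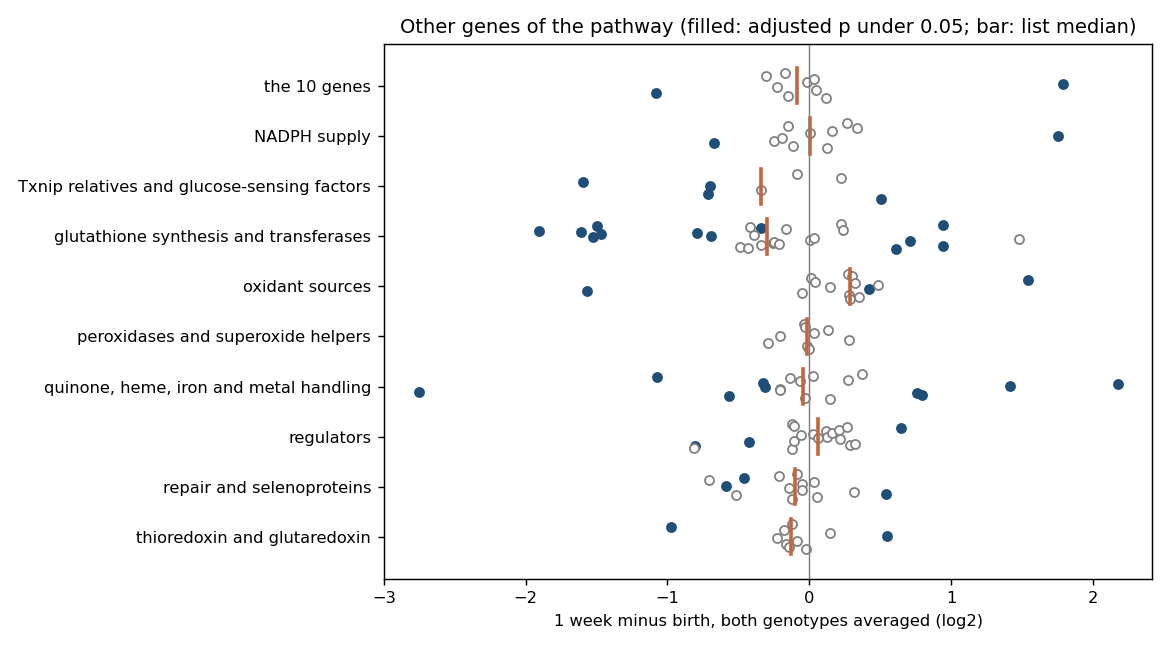
Difference between 1 week and birth, averaged over genotypes (log2), for the 10 genes and for each tested gene of the 9 lists; filled points passed at an adjusted p under 0.05 and bars mark list medians. All list medians lie between -0.34 and +0.29, and Mt2 is the lowest point.

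The gene whose level ran most alike to each of the 10 over the 8 arrays was sought among 14540 genes by Pearson's r, given as a description of these arrays, which share group, slide row and scaling. For the changed genes it was Septin5 for Sod3 (r = 0.996) and Dapp1 for Txnip (r = 0.995), both also apart between the ages, at +0.72 and -0.94 (log2). The nearest gene was Ginm1 for Cat (r = 0.988), Gins4 for Prdx3 (r = 0.993), Mpv17l2 for Gpx1 (r = 0.972) and Bet1l for Gpx3 (r = 0.951). It was Pex26 for Sod2 (r = 0.97), Twist1 for Sod1 (r = 0.942), Ghr for Nqo1 (r = 0.976) and Ldb1 for Hmox1 (r = 0.972).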

How the data were processed

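Total RNA of pooled ventricles was hybridised to single-colour Agilent arrays (8 arrays, 1 slide, 1 scan). Per the file headers, the authors' scanner files were made with Agilent Feature Extraction 11.0.1.1 on build mm9; the submitters' processing notes give version 9.1. The deposited intensity values are processed signals, background-subtracted and detrended within each array but not scaled between arrays. Flags for background, saturation and outliers were used as deposited. The deposited value table holds the same intensity values, each column equal to 1 scanner file within 0.0001; it was used to give each array its sample, since the records differ at 1 week.

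Control spots and outlier flags were left out and spots of a probe averaged. Values were log2 intensity minus each array's 75th percentile. Of 56605 probes, 32994 were named through RefSeq accessions and 23611 were not. The brightest probe stood for a gene, and genes were tested where some group had both arrays well above background, with limma 3.58.1 (R 4.3.3; 4 group means, 4 residual degrees of freedom, Benjamini-Hochberg, threshold 0.05). A called gene passed that threshold, and errors are standard errors with 95% intervals of the model. On simulated data of the averaged age comparison (15743 genes) limma recovered 77 of 100 genes given a 2-fold change, 95 of 100 given a 4-fold change, and called 14 unchanged genes. Only these genes were changed, a far smaller share than the 29.3% called in the data, and noise was drawn independently. The recovery in the real comparison can therefore differ.

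The 10 genes and all lists were chosen with earlier results of these data known. Named besides were the 3 genes of each list with the smallest p over the week and the gene most alike to each of the 10. Lists have no set test. Marker genes named singly were chosen after their values were seen. Of the listed genes Slc7a11, Foxo4, Nox1 and Nos1 did not pass the filter, and Nnt and Pon2 were not matched to a probe. Replicate numbers were not taken to pair arrays, since same-numbered deviations correlated between -0.14 and 0.29 across genes. Alternatives were the other record, value-table values, normexp (offset 50, on median spot and background signals, since mean signals were not used here), quantile and median scaling, filters, probe means, a replicate block, an intensity trend, array weights, the arrays compared alone, and leaving out each array.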

Additional observations from a re-analysis of the deposited data

How the results depend on the processing

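Sod3 and Txnip kept direction and call in the averaged and WT age comparisons under every alternative run (adjusted p up to 0.00375 and 0.00463 averaged), and Sod3 also in KI (up to 0.0429); Txnip in KI lost its call without either KI array at 1 week. No gene of the 10 passed between genotypes or in the interaction under any alternative. Of the 1180 single-gene values under alternatives, 1099 kept sign and call, 76 changed sign, 2 lost and 3 gained a call; the cause was not tested. The 2 arrays a group limit the precision.

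By the scanner-file samples the sign turned with age in WT for Sod1 (-0.0090), Sod2 (0.19), Gpx1 (0.039) and Nqo1 (0.25). It also turned with age in KI for Sod2 (-0.091), Gpx1 (-0.076) and Nqo1 (-0.0076). Between genotypes at 1 week it turned for Cat (-0.19), Sod1 (0.061), Sod2 (-0.37), Sod3 (0.19), Gpx1 (-0.20), Prdx3 (-0.22) and Nqo1 (-0.089). In the interaction it turned for Cat (-0.13), Sod1 (0.093), Sod2 (-0.28), Sod3 (0.062), Gpx1 (-0.12), Prdx3 (-0.16) and Nqo1 (-0.26). With normexp the sign turned averaged over genotypes for Sod2 (-0.038) and Gpx1 (0.015). It also turned with age in KI for Cat (0.039). Between genotypes at 1 week it turned for Sod3 (0.019). In the interaction it turned for Sod1 (0.015). With quantile normalization the sign turned averaged over genotypes for Gpx1 (0.084). It also turned with age in WT for Sod2 (0.014), Gpx3 (0.00047) and Hmox1 (0.030). Between genotypes at birth it turned for Sod1 (0.0085). With median scaling the sign turned averaged over genotypes for Sod1 (-0.048) and Sod2 (-0.036). It also turned with age in WT for Sod1 (-0.11). Between genotypes at 1 week it turned for Sod1 (0.034), Sod3 (0.051) and Txnip (0.0019). In the interaction it turned for Sod1 (0.13) and Gpx3 (0.052).

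Leaving out 1 array at a time turned some small values. The ranges (log2) were as follows. Averaged over genotypes they were -0.011 to 0.086 for Sod1, -0.066 to 0.17 for Sod2, -0.13 to 0.094 for Gpx1, -0.37 to 0.077 for Gpx3 and -0.016 to 0.26 for Nqo1. With age in WT they were -0.050 to 0.14 for Sod1, -0.32 to 0.15 for Sod2, -0.38 to 0.071 for Gpx1, -0.55 to 0.35 for Gpx3 and -0.077 to 0.021 for Hmox1. With age in KI they were -0.19 to 0.068 for Cat, -0.024 to 0.079 for Sod1 and -0.11 to 0.0037 for Prdx3. Between genotypes at birth they were -0.20 to 0.079 for Cat, -0.13 to 0.065 for Sod1, -0.23 to 0.051 for Sod2, -0.10 to 0.36 for Sod3, -0.035 to 0.37 for Nqo1 and -0.014 to 0.27 for Hmox1. Between genotypes at 1 week they were -0.057 to 0.41 for Sod2, -0.25 to 0.18 for Sod3, -0.037 to 0.41 for Gpx1, -0.10 to 0.80 for Gpx3 and -0.052 to 0.40 for Prdx3. In the interaction they were -0.12 to 0.077 for Sod1, -0.39 to 0.069 for Sod3 and -0.54 to 0.36 for Gpx3. The count of the 10 genes called ran from 2 to 4 in WT and from 1 to 2 in KI. Counts over all genes ran from 2947 to 5540 averaged, 1195 to 4200 in WT, 655 to 1943 in KI, 1 to 40 at birth, 3 to 66 at 1 week and 19 to 44 in the interaction.

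All-gene counts in WT (2988) became 1868 without a filter, 1905 with array weights and 1700 with only the arrays compared, and in KI (1671) 1084 without a filter. At birth (6) they became 0 by the scanner files, 0 without a filter, 3 for genes above background on all arrays and 0 with only the arrays compared. At 1 week (8) they became 1 by the scanner files, 4 with normexp, 3 without a filter, 4 above background on all arrays, 3 with the mean of probes, 4 with array weights and 0 with only the arrays compared. The interaction count (1) was 0 by the scanner files, 0 with quantile normalization, 2 with median scaling, 0 without a filter and 2 above background on all arrays. With the replicate number as a block, 0 genes passed at birth and 0 in the interaction, 4629 passed averaged over genotypes, and no call of the 10 genes changed. Where limma called 0 genes, 677 to 1079 had an unadjusted p under 0.05. Median scaling moved the median of all genes from -0.042 to -0.20 in WT and the split of higher and lower calls from 1577 and 1411 to 1005 and 1755; averaged over genotypes the split moved from 2326 and 2282 to 1692 and 2494.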
